A study of Mus musculus with 8 samples.

Results

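The genes described here are 37 interferon-stimulated genes of the mouse, chosen by name from the textbook interferon response, of 26107 genes that have a transcript in the pre-B files. They were followed in sorted pre-B cells by RNA-seq and in sorted LSK progenitors by Omni-ATAC-seq, with 2 WT and 2 Dido1∆E16 libraries for each assay. The study asks what loss of Dido3, the long product of Dido1 that ends in exon 16, does to B cell differentiation. All animals were C57BL/6 mice of 6 to 10 weeks that carried the R26R-EYFP reporter and the iCreVav1 transgene, whose Vav1 promoter drives Cre in blood cells. Dido1∆E16 animals were Dido1flE16/∆E16, with a floxed allele and a deleted allele. The animals called WT were Dido1flE16/+ littermates, so they carried Cre and a floxed allele as well and kept an unmodified allele. Pre-B cells, from a gate that included B220+ and IgM-, came from pools of mice, and LSK cells are the Lin- Sca-1+ cKit+ IL7R- fraction that holds the blood stem cells.

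Type I interferons bind the receptor Ifnar1/Ifnar2, whose kinases Jak1 and Tyk2 activate Stat2 among others. Stat2 and Irf9 are parts of ISGF3, which binds the interferon-stimulated response element (ISRE) before its target genes, while interferon gamma acts through Ifngr1/Ifngr2 and reaches genes with gamma-activated sites. The induced genes encode antiviral effectors and also sensors and transcription factors that feed back on the response, and many have a low constitutive level in lymphocytes and stem cells.

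The promoter sequences carry the mark by which these genes are usually recognised. Of the 37 members, 27 had a window of 250 bp before to 50 bp after a start site in RefSeq (GRCm38.p6), and 18 of the 27 (66.7%) held the ISRE core, which is GAAA, any 2 bases and GAAA again, on either strand, against 3.99% of 27025 genes with such a window. The windows around the core are printed for the members with the smallest p-values in pre-B cells that hold it. Those of 4 further members, whose LSK promoter peaks are described below, follow. Each runs 5′ to 3′ on the strand on which the core reads GAAA first, with a core in capitals. In the Gbp3 and Isg15 windows the lower-case flanks hold part of further cores, which overlap the one in capitals.

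Gbp2, chr3:142620594-142620623, minus strand: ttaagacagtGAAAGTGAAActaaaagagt

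Gbp3, chr3:142559989-142560018, minus strand: ctgggaaataGAAACTGAAActgtgtcctg

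Gbp7, chr3:142530273-142530302, minus strand: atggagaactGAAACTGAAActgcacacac

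Isg15, chr4:156200871-156200900, minus strand: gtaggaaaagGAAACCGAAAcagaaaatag

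Eif2ak2, chr17:78882535-78882564, minus strand: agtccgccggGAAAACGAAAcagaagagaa

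Igtp, chr11:58199512-58199541, plus strand: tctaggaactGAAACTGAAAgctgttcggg

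Irgm2, chr11:58214903-58214932, plus strand: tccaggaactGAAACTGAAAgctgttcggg

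Ifit3, chr19:34583397-34583426, minus strand, the nearer to the start of 2 cores: gaggaaagtaGAAACTGAAAcagacttaaa

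Ddx58, chr4:40239804-40239833, plus strand: ctggccatagGAAATCGAAActgcctcagg

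The windows of Igtp and Irgm2, neighbouring genes for immunity-related GTPases, were identical in 29 of 30 bases. The core occurred 27 times in the 18 promoters, 23 times before the start site, with a median position of -54 bp, and 8 members held it more than once. The others with a core were Ifit1, Stat2, Oas1a, Oas3, Rsad2, Bst2, Ifih1, Irgm1 and Trim30a. With a C directly after it, the core was found in 14 members and in 0.944% of all genes. The gamma-activated site TTCNNNGAA was found in 9 of the 27 members (33.3%) and in 9.55% of all genes. It shared a window with an ISRE core in 6 members, Oas1a, Bst2, Gbp7, Igtp, Irgm2 and Eif2ak2, and was the only one of these motifs in Ifit2, Ifi35 and Samhd1. One pair of sites overlapped, in Bst2. A match describes letters in a window and not binding. The members without a window in the table were Oas2, Mx1, Mx2, Ifi27l2a, Usp18, Dhx58, Rtp4, Parp9, Parp14 and Zbp1.

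**Figure D1:**
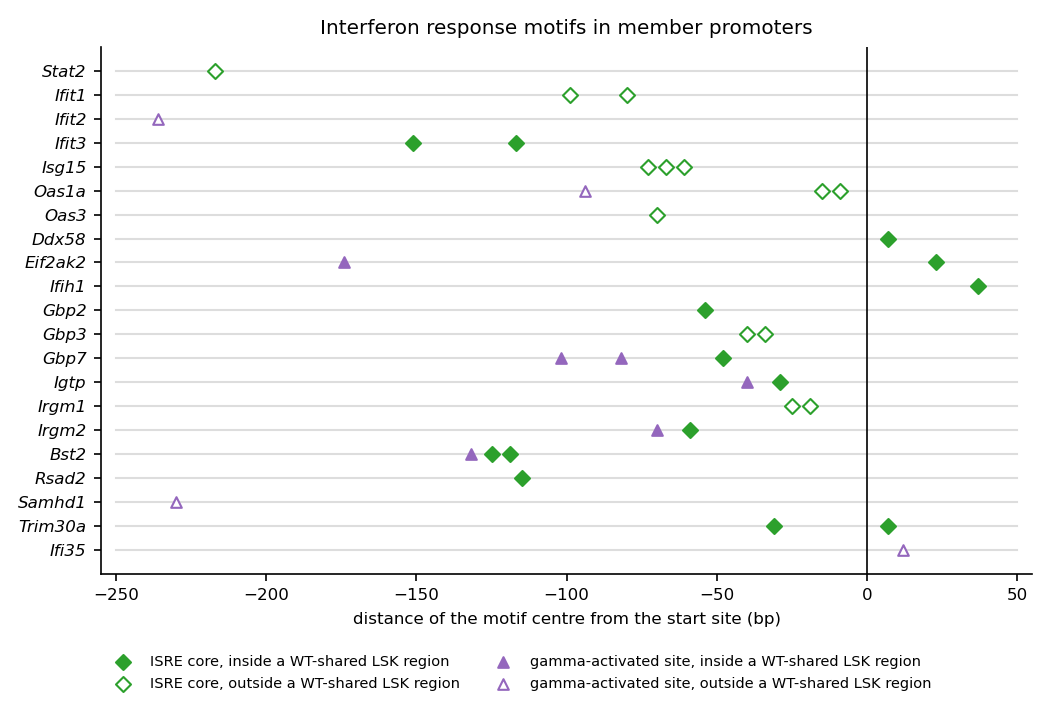
Position of the motif centre relative to the start site (bp, 0 is the start) for the members whose RefSeq promoter window held an ISRE core (diamonds) or a gamma-activated site (TTCNNNGAA, triangles). Filled symbols lie inside a region accessible in both WT LSK libraries. Of the 27 ISRE cores, 23 lie before the start site, and 11 of the 18 members have a core inside such a region.

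In pre-B cells, exon 16 of Dido1 had 51.7% and 40.4% of the mean coverage of the other exons in WT and only 0.927% and 0.208% in Dido1∆E16, as labelled. The libraries listed 17183 to 19612 transcripts above 0, from 1121 to 1635 aligned megabases (coverage times length, summed). They are of the B lineage by their markers, with Cd79a at 3648 to 4476 TPM (transcript level corrected for length and library size). The 10 T and NK cell markers, with Cd3e and Cd4 at 0, summed to 6.92 and 3.58 TPM for WT and to 9.29 and 23.6 TPM for Dido1∆E16. Most of this came from Klrb1c, and from Nkg7 in Dido1∆E16 replicate 2 (16.3 TPM). Of 7 tested mature B cell markers, 2 lay above and 3 below WT in both Dido1∆E16 libraries. Of 4 tested plasma cell markers it was 0 and 2, beside 27.1% and 15.6% of all genes. The libraries also differed in ways that touch the results below. The 15 neutrophil and monocyte markers summed to 294 and 2440 TPM for WT and to 1237 and 10935 TPM for Dido1∆E16, with Ctsg and Ltf listed at 0 in WT replicate 1. The 9 erythroid markers summed to 340 and 951 TPM for WT and to 755 and 8746 TPM for Dido1∆E16. The surrogate light chain genes Vpreb1 and Igll1 and the pro-B enzyme Dntt were higher in both Dido1∆E16 libraries, Vpreb1 with 108 and 40.9 TPM in WT and 1222 and 738 TPM in Dido1∆E16. Of the 9 plasmacytoid dendritic cell markers, Siglech was listed at 0 in both WT libraries and reached 0.781 and 5.26 TPM in the Dido1∆E16 ones, and Klk1 and Runx2 were at 0 in all 4. Tcf4 and Irf8 were also higher in both Dido1∆E16 libraries, Pacsin1 was lower (1.501 and 1.08 TPM, then 0 and 0), and Bst2, Cox6a2 and Ccr9 overlapped. The 9 together summed to 490 and 554 TPM for WT and to 675 and 649 TPM for Dido1∆E16. The part of these cells in the members' levels was not tested. In such bulk samples, fewer cells of a type and less RNA per cell cannot be told apart.

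For 20 of the 36 tested interferon-stimulated genes the genotypes overlapped, beside 6815 of all 11891 genes, and the group was not tested as a set. The guanylate-binding proteins among the members had the smallest unadjusted p-values by limma. Gbp2, Gbp3 and Gbp7 had 2.1 to 3.0 times the WT level in Dido1∆E16 pre-B cells (as TPM + 1), and Isg15 1.7 times, while Samhd1 had 0.71 times. None of these differences passed the threshold of the limma fit. By limma (on log2(TPM + 1) of the gene sums, with Benjamini-Hochberg adjustment over 11891 genes, calling genes whose adjusted p was below 0.05 and whose log2 fold change was 0.6 or more in size), 0 of 36 tested members were called, against 0.0505% of all tested genes (6 genes, with 0.0252% called higher and 0.0252% called lower). Of the 6 called genes, Ndufa5, Tex45, Mrpl42 and Smim11 were listed at 0 in both libraries of 1 genotype, which may be failed estimates. At an unadjusted p under 0.05 there were 6 members, which is 16.7% of those tested, beside 11.6% of all genes. Of these 5 were higher (Gbp2, Gbp3, Gbp7, Isg15 and Eif2ak2), beside 8.59% of all genes, and 1 lower (Samhd1), beside 3.04%. The smallest adjusted p of a member was 0.215. The member that was not tested is Ifit1, whose mean lay under the filter of 1 TPM. The p-values measure only the spread between these libraries, each a pool of mice.

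Both Dido1∆E16 libraries lay above both WT libraries for 13 of the 36 members (36.1%), beside 27.1% of all genes, and below both for 3 (8.33%), beside 15.6%. For the other 20 the genotypes overlapped. With a log2 fold change of at least 0.6 in size as well, 8 members lay above (Gbp2, Gbp3, Gbp7, Isg15, Oas3, Ifit2, Ifit3 and Rsad2), beside 11.7% of all genes, and 1 below (Oas2), beside 4.05%. The median log2 fold change of the tested members, as Dido1∆E16 minus WT, was 0.14, with 0.07 for all genes. That median rested on the WT library used. Without WT replicate 2 it was 0.29 (all genes 0.0034), with 24 members above and 5 below (38.1% and 37.3% of all genes), and without WT replicate 1 it was 0.0035 (all genes 0.14), with 15 above and 15 below (51.4% and 28.5%). Without Dido1∆E16 replicate 2, the library with the most neutrophil and monocyte RNA, 17 members lay above and 5 below (39.7% and 20.9%).

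WT replicate 2 had the highest level of 15 members (41.7%), beside 21.5% of all genes, and WT replicate 1 the lowest level of 18 (50%), beside 24.0%. The members highest in WT replicate 2 included Irf7, Usp18, Oas2, Mx1, Mx2, Rtp4, Xaf1, Zbp1 and Dhx58. The difference between the WT libraries was larger than the difference between the genotype means for 23 of the 36 members (63.9%), beside 58.1% of all genes.

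**Figure D2:**
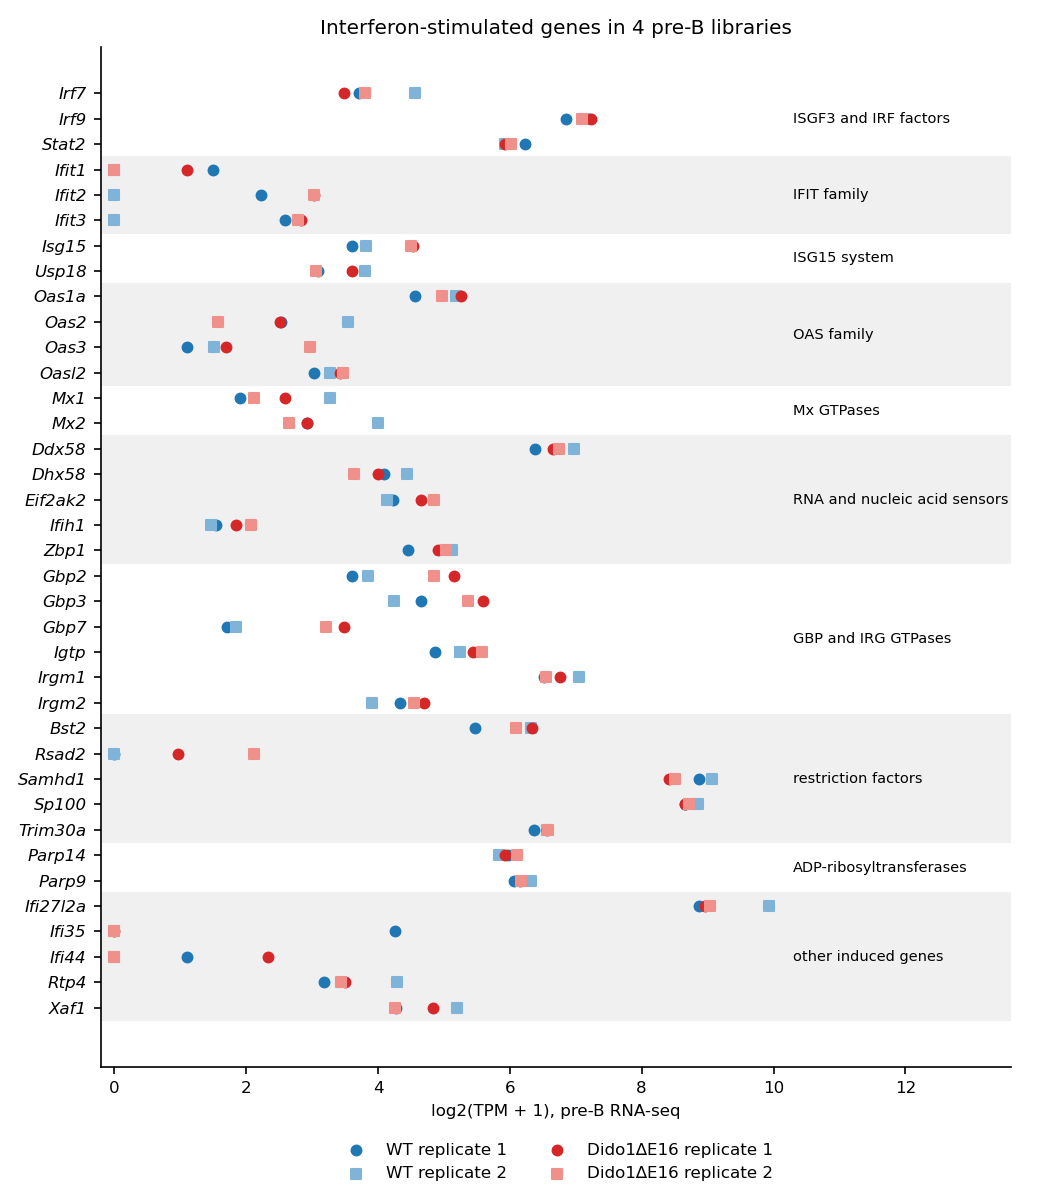
Level of each of the 37 members in the 4 pre-B libraries as log2(TPM + 1), grouped by role, with 1 point per library. The blue and red points of Gbp2, Gbp3, Gbp7 and Isg15 do not overlap, WT replicate 2 (light blue squares) lies to the right for Irf7, Oas2, Mx1, Mx2, Rtp4 and Xaf1, and Samhd1, Sp100 and Ifi27l2a have the highest levels.

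The factors that drive the response overlapped between the genotypes. Irf9, the DNA-binding subunit of ISGF3 and the most abundant of this group, had 114 and 140 TPM in WT and 149 and 135 TPM in Dido1∆E16 libraries. The libraries overlapped, and the log2 fold change was 0.16 ± 0.16 (SE, n = 2 and 2). Stat2, which joins Irf9 in ISGF3, was at 59.6 to 74.4 TPM with a log2 fold change of -0.10. Irf7, the factor that amplifies interferon production, was at 12.2 and 22.7 TPM in WT and 10.2 and 12.9 TPM in Dido1∆E16, so that WT replicate 2 stood above the other three.

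Of the IFIT proteins, Ifit1 binds viral RNA that lacks host cap methylation. Ifit2 had 3.69 TPM in WT replicate 1, was listed at 0 in WT replicate 2, and had 7.16 and 7.18 TPM in Dido1∆E16. Ifit3 had 5.01 TPM, 0, 6.11 and 5.87 TPM in the same order. Ifit1 was at 1.81 TPM, 0, 1.14 TPM and 0. Ifit2 and Ifit3 were thus higher in both Dido1∆E16 libraries, and the listing at 0 in 1 WT library set most of the distance. Their log2 fold changes were 1.92 ± 0.84 (SE, n = 2 and 2) and 1.51 ± 0.95 (SE, n = 2 and 2), with limma adjusted p = 0.503 and 0.640, while they were 0.80 and 0.22 without WT replicate 2 and 3.03 and 2.80 without WT replicate 1. A 0 in these files may be a failed estimate, since Ndufa5, a subunit of complex I that every cell uses, is listed at 0 in both WT libraries and at 83.0 and 81.7 TPM in Dido1∆E16.

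Isg15, a ubiquitin-like protein that is conjugated to other proteins during the response, had 11.2 and 13.1 TPM in WT and 22.04 and 21.5 TPM in Dido1∆E16. Both WT libraries were close to each other and below both Dido1∆E16 libraries. The log2 fold change was 0.79 ± 0.20 (SE, n = 2 and 2), with limma adjusted p = 0.304. Its log2 fold change stayed between 0.69 and 0.90 under 11 alternatives, with adjusted p from 0.211 to 0.853. Usp18, the protease that removes Isg15 and dampens the receptor, did not share the pattern, with 7.55 and 12.98 TPM in WT and 11.2 and 7.36 TPM in Dido1∆E16.

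The OAS enzymes make the second messenger that activates RNase L. Oas1a, the most abundant of them, had 22.7 and 35.2 TPM in WT and 37.3 and 30.2 TPM in Dido1∆E16, with overlap. Oas3 had 1.13 and 1.86 TPM in WT and 2.24 and 6.85 TPM in Dido1∆E16. Oas2 had the opposite order, with 4.77 and 10.7 TPM in WT and 4.74 and 1.96 TPM in Dido1∆E16, where 1 library of each genotype was almost equal. The log2 fold changes were 1.03 ± 0.59 for Oas3 and -0.99 ± 0.56 for Oas2 (SE, n = 2 and 2), with limma adjusted p = 0.607 and 0.602. They rested on single libraries: Oas3 was at 0.39 without Dido1∆E16 replicate 2 and 1.67 without replicate 1, and Oas2 at -0.49 without WT replicate 2, -1.50 without WT replicate 1, -1.47 without Dido1∆E16 replicate 1 and -0.52 without Dido1∆E16 replicate 2. Oasl2, an OAS-like relative, had 7.20 to 10.1 TPM. The Mx GTPases, which block early steps of viral replication, had their highest level in WT replicate 2. Mx2 was at 6.59 and 14.97 TPM in WT and 6.60 and 5.27 TPM in Dido1∆E16, and Mx1 ranged from 2.73 to 8.64 TPM. The reads of Mx1, as those of Igtp and Rsad2 below, lay on transcripts that the authors' files do not pair with a symbol and that were assigned to the gene by their exons.

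Among the sensors, Eif2ak2 (the kinase PKR, which halts translation on double-stranded RNA) had 17.7 and 16.6 TPM in WT and 24.1 and 27.8 TPM in Dido1∆E16. The libraries did not overlap, and the log2 fold change was 0.57 ± 0.18 (SE, n = 2 and 2) with limma adjusted p = 0.373. Ddx58 (RIG-I), the most abundant sensor, had 82.3 and 125 TPM in WT and 99.3 and 106 TPM in Dido1∆E16. Its log2 fold change of 0.02 turned to -0.06 after median-centring and to -0.0071 with FPKM. Ifih1 (MDA5) was at 1.76 to 3.22 TPM and higher in both Dido1∆E16 libraries, Dhx58 (LGP2) was at 11.4 to 20.6 TPM and lower in both, and Zbp1, a sensor of Z-form nucleic acid, overlapped. The log2 fold changes of Ifih1 and Dhx58 were 0.46 and -0.45.

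**Figure D3:**
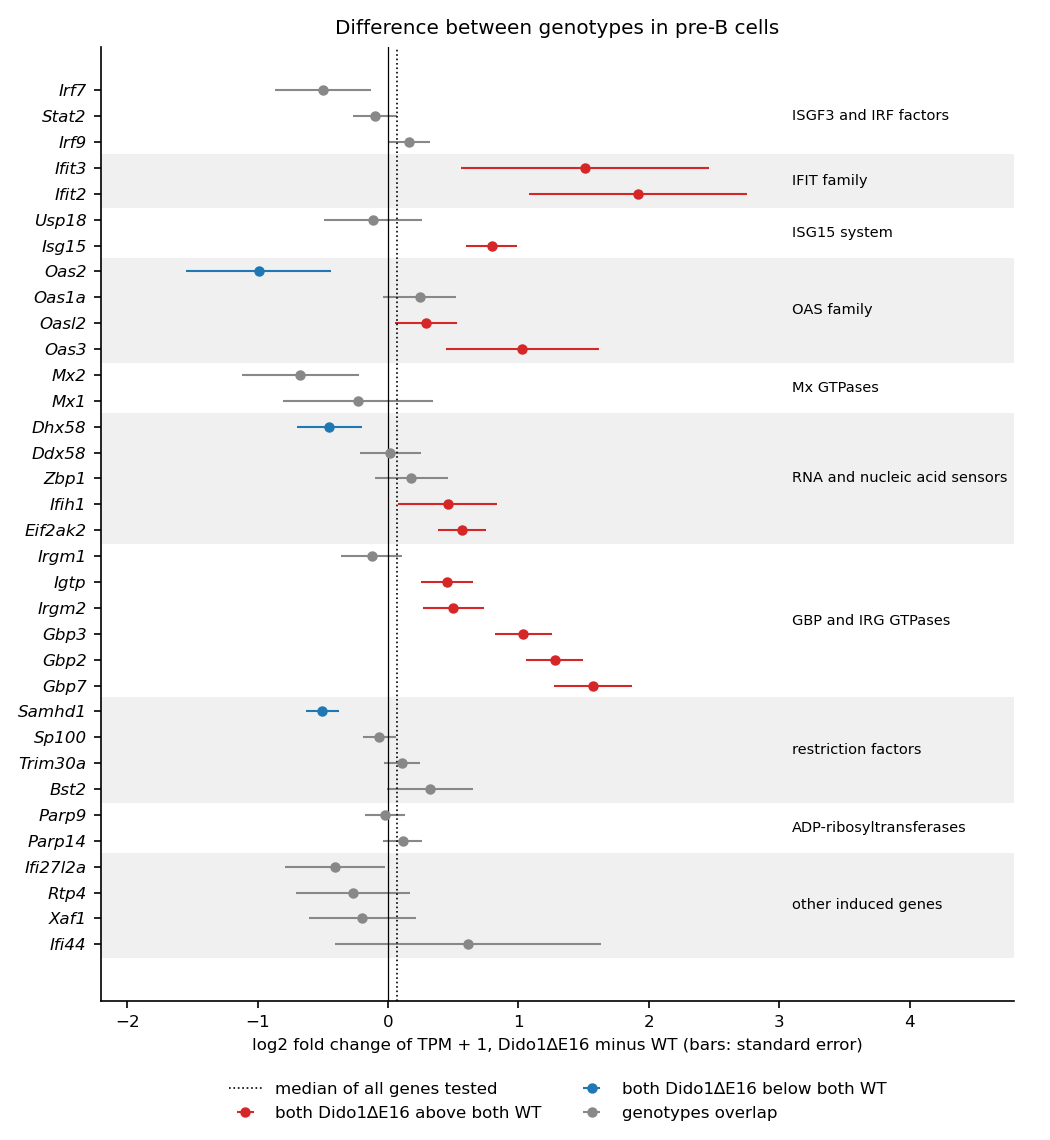
Log2 fold change of TPM + 1 (Dido1∆E16 minus WT, bars are 1 SE, n = 2 and 2) of 34 tested members, grouped by role, with the median of all genes as a dotted line. Rsad2 and Ifi35, listed at 0 in both libraries of 1 genotype, are left out. Gbp7, Gbp2 and Gbp3 lie at 1.57, 1.28 and 1.04, and the other members spread to both sides of 0, with wide bars for Ifit2, Ifit3 and Ifi44.

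The interferon-inducible GTPases, which coat and break the vacuoles of intracellular pathogens, held the most regular differences. Gbp2 had 11.1 and 13.4 TPM in WT and 34.7 and 27.8 TPM in Dido1∆E16. Gbp3 had 24.1 and 17.9 TPM in WT and 47.2 and 40.4 TPM in Dido1∆E16. Gbp7 had 2.26 and 2.60 TPM in WT and 10.2 and 8.29 TPM in Dido1∆E16. For all 3 both Dido1∆E16 libraries were above both WT libraries, and Dido1∆E16 replicate 1 was the highest. The log2 fold changes were 1.28 ± 0.22, 1.04 ± 0.22 and 1.57 ± 0.30 (SE, n = 2 and 2), with limma adjusted p = 0.215, 0.250 and 0.226. The adjusted p over 11 alternatives ran from 0.154 to 0.662 for Gbp2, from 0.198 to 0.794 for Gbp3 and from 0.0892 to 0.428 for Gbp7, and the fold changes stayed positive, with 0.83 the smallest.

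The 3 genes are neighbours on chromosome 3, with transcripts that span chr3:142530336-142550151 (Gbp7), chr3:142560052-142573212 (Gbp3) and chr3:142620663-142638008 (Gbp2) on mm10. Closely similar members of this family can share reads, and the level of each is uncertain to that extent. The levels of Gbp3 were assigned to 1 transcript in 3 libraries and to another in Dido1∆E16 replicate 1, so the gene sum was used. Of the IRG genes, Igtp had 28.2 and 36.8 TPM in WT and 42.3 and 46.7 TPM in Dido1∆E16, and Irgm2 19.1 and 14.02 TPM against 25.1 and 22.2 TPM. One annotated Irgm2 transcript, listed at 0, begins at the Igtp start, so these overlapping genes may share reads. Irgm1, the most abundant of the group, had 90.2 and 132 TPM in WT and 107 and 92.8 TPM in Dido1∆E16, with overlap. In all, 5 of the 6 GTPase genes lay above WT in both Dido1∆E16 libraries and none below, beside 27.1% and 15.6% of all genes.

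Restriction factors act on single steps of viral replication. Samhd1, which hydrolyses dNTPs, was the most abundant of them by mean level and lower in both Dido1∆E16 libraries, with 469 and 533 TPM in WT and 342 and 363 TPM in Dido1∆E16. The log2 fold change was -0.50 ± 0.13 (SE, n = 2 and 2), with limma adjusted p = 0.312. This value depended on the transcripts counted. With the transcripts that the authors' files pair with a symbol alone, its levels were 254 and 521 TPM in WT and 187 and 348 TPM in Dido1∆E16, which overlap. The study lists a Samhd1 transcript as lower in Dido1∆E16 pre-B cells by its own test of transcripts, unlike the limma fit of gene sums. Rsad2 (viperin) was listed at 0 in both WT libraries and at 0.948 and 3.35 TPM in Dido1∆E16. Sp100, a nuclear body protein, was at 401 to 461 TPM, Trim30a at 81.2 to 94.9 TPM and Bst2 (tetherin) at 43.2 to 79.7 TPM, each with overlap.

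The remaining members overlapped throughout. Parp9 and Parp14, which modify proteins with ADP-ribose in this pathway, lay close together in all libraries. Parp9 had 65.6 and 79.3 TPM in WT and 70.5 and 71.2 TPM in Dido1∆E16, and Parp14 ranged from 55.9 to 68.0 TPM. Ifi27l2a, a small hydrophobic protein and the member with the highest mean, had 468 and 979 TPM in WT and 497 and 526 TPM in Dido1∆E16. Rtp4 and Xaf1 were likewise highest in WT replicate 2, at 18.6 and 35.9 TPM. Ifi44 was listed at 0 in 1 library of each genotype, and Ifi35 was at 18.1 TPM in WT replicate 1 and at 0 in the other three.

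The genes before and around the members in the pathway were described from 7 lists of 113 genes, of which 84 were tested and 0 were called by limma (0.0505% of all genes), with 13 at an unadjusted p under 0.05 (11.6% of all genes). Of 20 interferon genes, none reached the filter, and the summed level of all 20 was at most 2.06 TPM in a library. The 6 receptor chains all lay higher in both Dido1∆E16 libraries, beside 27.1% of all genes. Ifngr1, the ligand-binding chain for interferon gamma, had 111 and 91.8 TPM in WT and 133 and 145 TPM in Dido1∆E16. Its partner Ifngr2 had 126 and 143 TPM against 183 and 161 TPM. Of the type I receptor, Ifnar1 had 54.8 and 47.1 TPM against 62.1 and 60.0 TPM, and Ifnar2 57.3 and 57.7 TPM against 68.0 and 69.2 TPM. Their log2 fold changes were between 0.25 and 0.46, with limma adjusted p from 0.388 to 0.609, and Ifnlr1, the receptor of the lambda interferons, was near 0 in WT and at 3.86 and 2.45 TPM in Dido1∆E16.

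Of the receptor kinases, Tyk2 had 41.3 and 37.3 TPM in WT and 48.9 and 46.8 TPM in Dido1∆E16, and Jak2 43.1 and 33.2 TPM against 44.8 and 56.4 TPM. Jak1 overlapped, with 219 and 190 TPM against 200.4 and 249 TPM. The log2 fold change of Tyk2 was 0.28, and -0.25 with the symbols of the authors alone. Irf1, which interferon gamma induces, had 155 and 324 TPM in WT and 323 and 222 TPM in Dido1∆E16, and Irf8, a factor of B and myeloid cells, 291 and 289 TPM against 394 and 364 TPM. Irf2bp2, a corepressor that binds Irf2, overlapped, with 111 and 408 TPM in WT and 202 and 86.6 TPM in Dido1∆E16. Tmem173 (STING), the adaptor of cytosolic DNA sensing, had 154 and 179 TPM in WT and 238 and 259 TPM in Dido1∆E16, with a log2 fold change of 0.58 and limma adjusted p = 0.297, and Ticam1, the adaptor of Tlr3, was lower in both (25.7 and 34.2 TPM against 23.5 and 24.2 TPM). Of 9 negative regulators, 3 lay above and 4 below in both Dido1∆E16 libraries (27.1% and 15.6% of all genes), among them Socs3 (0 and 1.97 TPM against 5.88 and 3.09 TPM) and the nuclease Trex1 (14.5 and 11.02 TPM against 0.262 and 8.98 TPM).

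Of 50 further interferon-induced genes, 47 were tested, 23 lay above and 3 below in both Dido1∆E16 libraries (27.1% and 15.6% of all genes), and 8 had an unadjusted p under 0.05 (11.6% of all genes). The extremes were Ifitm2, with 0 and 16.1 TPM in WT and 46.2 and 53.2 TPM in Dido1∆E16, and Ly6a (Sca-1), with 22.3 and 13.7 TPM against 6.11 TPM and 0. The remaining guanylate-binding proteins, singled out after their values were seen, continued the pattern of the members. Gbp5 had 8.87 and 8.85 TPM in WT and 15.8 and 15.5 TPM in Dido1∆E16. Gbp9 had 75.3 and 70.3 TPM against 101 and 101 TPM, and Gbp6 1.57 TPM and 0 against 9.70 and 5.24 TPM. Gbp8 was also higher in both Dido1∆E16 libraries, whereas Gbp4 overlapped. In both lists together, 7 of 8 Gbp genes lay above WT in both Dido1∆E16 libraries, 0 lay below, 6 had an unadjusted p under 0.05 and 0 were called, beside 27.1%, 15.6%, 11.6% and 0.0505% of all genes. Gbp10, tested but in neither list, was also higher, with a log2 fold change of 1.51. Ifi204, a DNA sensor of the same induced program, was listed at 0 in both WT libraries and had 6.03 and 6.44 TPM in Dido1∆E16, and Shisa5 had 412 and 425 TPM in WT and 747 and 867 TPM in Dido1∆E16.

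**Figure D4:**
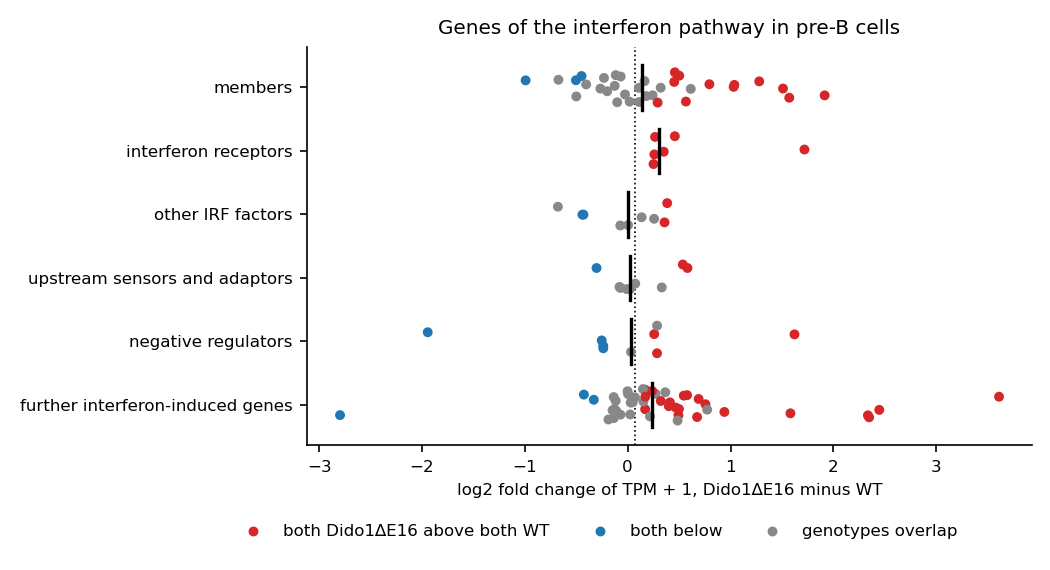
Log2 fold change of TPM + 1 (Dido1∆E16 minus WT) of each tested gene of the members and of 5 pathway lists in pre-B cells. Each point is 1 gene, black bars are list medians, the dotted line is the median of all genes, and Rsad2, Ifi35, Ifi204 and Parp12, listed at 0 in both libraries of 1 genotype, are not drawn. The receptor points all lie above 0.25, while members spread to both sides.

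In LSK cells, accessibility at the members was read from the MACS2 peaks that the authors called in each library and annotated to genes, with a promoter reaching from 1 kb before to 200 bp after the start site. From 10249256 and 52050898 tags, 27352 and 57739 peaks had been called in WT. In Dido1∆E16 there were 13208 and 16329 peaks from 22533077 and 44633938 tags, so peak number did not follow depth. The stem cell gene Kit had 4 to 11 peaks in every library, Cd3e had none, and Ly6a, the gene of Sca-1, had 1 peak in WT replicate 2 and none in the others. The members had 47 and 79 peaks in WT and 23 and 25 in Dido1∆E16, or 0.172% and 0.137% of the peaks in WT and 0.174% and 0.153% in Dido1∆E16, so their share overlapped between genotypes (exact two-sided permutation p = 0.667).

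A promoter peak marked 24 and 31 of the 37 members in the WT libraries, and 17 and 16 in Dido1∆E16. Over all genes the shares were 36% and 46.5% in WT and 29% and 29% in Dido1∆E16. A promoter peak was thus called more often at the members than at all genes in each library. The 2 sets differ in expression, since 36 of 37 members but 11891 of 26107 genes reached the filter in pre-B cells. Genes of like expression were not compared. Fewer members had a promoter peak in Dido1∆E16 than in WT (exact two-sided permutation p = 0.333, the smallest that 2 against 2 libraries allow). The order changed with lists of equal length. When each library was reduced to its 13208 peaks of highest score, 11 and 15 members had a promoter peak in WT and 17 and 13 in Dido1∆E16.

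Of the 24 members with a promoter peak in both WT libraries, 13 (54.2%) had one in both Dido1∆E16 libraries, beside 67.1% of all such genes, 3 (Irf7, Irgm1 and Eif2ak2) in 1, and 8 (33.3%) in none, beside 14.9% of all such genes. The 13 members with a peak in every library were Stat2, Irf9, Ifit2, Usp18, Mx2, Ifih1, Zbp1, Gbp3, Gbp7, Irgm2, Rsad2, Bst2 and Trim30a, so ISGF3 genes, sensors and effectors were all among them. The 8 with peaks in WT alone were Gbp2, Igtp, Ifit3, Mx1, Ddx58, Ifi27l2a, Ifi44 and Rtp4.

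The MACS2 scores of the 8 were 10 to 32 in WT replicate 1 and 41 to 105 in WT replicate 2, beside library medians of 48 and 89 over promoter peaks. The best scores of the 13 were 28 to 141 and 70 to 251, so the ranges overlapped. Gbp2 scored 21 and 96, Igtp 27 and 75, Ifit3 19 and 58, and Mx1, the strongest, 32 and 105. Ddx58, the weakest, scored 10 and 41, Ifi27l2a 31 and 89, Ifi44 14 and 49, and Rtp4 24 and 51. HOMER, the other caller, placed a promoter peak at 5 and 7 of the 8 in WT replicates 1 and 2. It placed one at 1 of the 8 in Dido1∆E16 replicate 1 (Ifi27l2a) and at 2 in replicate 2 (Mx1 and Rtp4). By HOMER, 2 of 22 member promoter regions shared by the WT libraries lacked a Dido1∆E16 peak (9.09%), beside 7.96% of all promoter regions. With MACS2 lists of equal length, 0 of 9 member promoter regions shared by the WT libraries lacked one, beside 2.66% of all. In the Gbp2, Igtp, Ifit3 and Ddx58 promoters the region shared by the WT libraries held the ISRE core printed above.

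Scores of the member of each role group whose best promoter peak had the highest mean score over the 4 libraries, given as WT replicates 1 and 2 and then Dido1∆E16 replicates 1 and 2, show the range. Trim30a, with the highest score in each library, had 141 and 251, then 96 and 120. Gbp3 had 98 and 208, then 63 and 78, and Stat2 74 and 211, then 56 and 45. WT replicate 2 had the highest score at all 13 members with peaks throughout, and it was the most deeply sequenced library. Ifit2 had 41 and 159, then 69 and 40, Ifih1 69 and 159, then 94 and 54, and Usp18 69 and 162, then 31 and 50, and for Ifit2 and Ifih1 the WT replicate 1 score lay within the range of the Dido1∆E16 libraries. Mx2 had 39 and 78, then 32 and 23. Parp9 had a promoter peak in WT replicate 2 alone, with a score of 77. Ifi35 and Samhd1 had none in WT replicate 1 and one in each other library, which for Ifi35 scored 56, then 52 and 17.

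**Figure D5:**
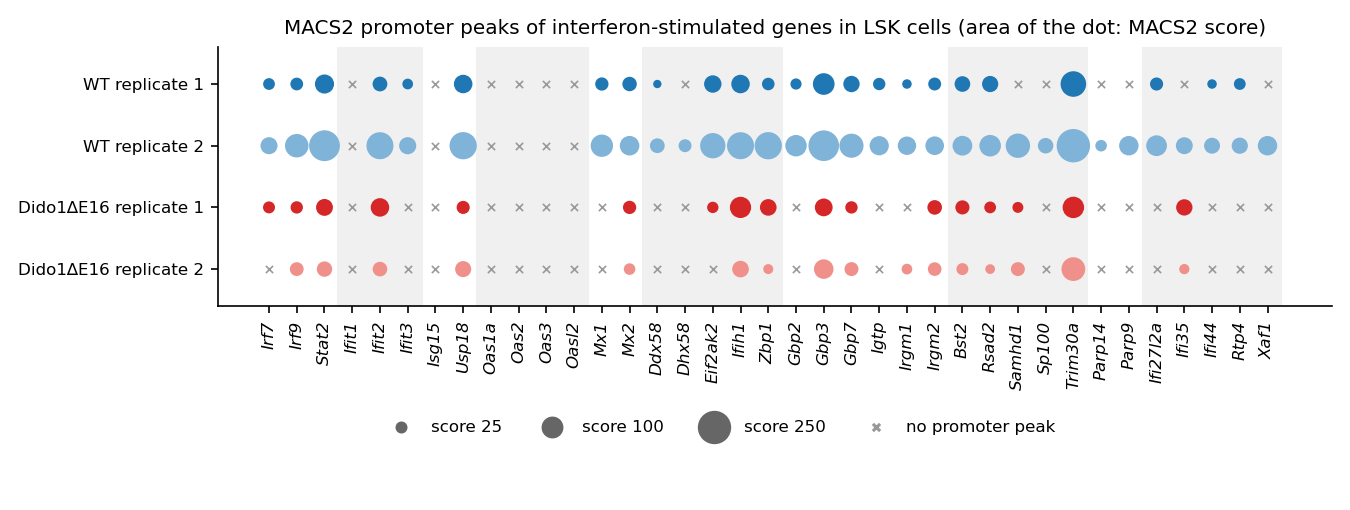
MACS2 promoter peaks of the 37 members in the 4 LSK libraries, with dot area proportional to the best score and a cross where no promoter peak was called. WT replicate 2 has peaks at 31 members and the Dido1∆E16 libraries at 17 and 16, and Isg15, Ifit1 and the 4 OAS genes have none in any library.

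MACS2 placed no promoter peak in any library at 6 members, Ifit1, Isg15, Oas1a, Oas2, Oas3 and Oasl2. These include all 4 OAS genes among the members, and Isg15, Ifit1, Oas1a and Oas3 hold an ISRE core in their window. HOMER placed a promoter peak at Isg15 in WT replicate 2 and Dido1∆E16 replicate 1, and at Ifit1 in WT replicate 1. At Oas3 HOMER placed one in WT replicate 2 and Dido1∆E16 replicate 2. In all, 46 regions shared by the WT libraries, promoters included, were annotated to a member, and 22 of them (47.8%) lacked a Dido1∆E16 peak, beside 43.7% of 26327 such regions overall. Of the 25 promoter regions among them 9 lacked one (36%), beside 15% of all promoter regions, of the 9 intronic regions 5, beside 63.3%, and of the 8 intergenic regions 5, beside 59.7%. By HOMER, the promoter regions lacking one were 9.09% for members and 7.96% for all. On mm10, the regions kept in both Dido1∆E16 libraries included an intron of Sp100 (chr1:85703349-85704094), an intron of Parp9 (chr16:35939613-35940116) and an intergenic region next to Usp18 (chr6:121272317-121272795). Those in Sp100 and Parp9 lie in regions that the authors listed with fewer Dido1∆E16 tags, with differences of -0.92 and -1.002 on the log2 scale.

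Tag counts of single libraries were available for regions that the authors listed as different between WT and Dido1∆E16, which fixes their direction. Of the 8536 listed regions, 8530 had fewer tags in Dido1∆E16. They covered 34.9% of the WT-shared promoter regions and 10 of the 25 of members, in 9 genes: Gbp2, Gbp3, Ifih1, Ifit2, Mx1, Mx2, Rtp4, Trim30a and Usp18. The Gbp2 promoter region had log2 tag counts of 7.42 and 7.59 in WT and 6.89 and 6.12 in Dido1∆E16. The Gbp3 region had 8.45 and 8.32 in WT and 7.84 and 7.04 in Dido1∆E16, and the Trim30a promoter 8.10 and 8.05 against 7.28 and 6.77. The mean differences were -0.999, -0.94 and -1.05, with a median of -0.94 over the listed member regions and -0.93 over all listed regions, so the members stood near the middle of the list. The Gbp2 and Gbp3 regions with fewer tags in Dido1∆E16 LSK cells belong to genes whose RNA was higher in Dido1∆E16 pre-B cells. The assays used different cells and animals, and no relation between them was tested.

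Genes of the pathway were also seen in LSK cells. Jak1, Jak2 and Tyk2 had a promoter peak in all 4 libraries, as did Ifnar1, Ifnar2 and Ifngr1. Ifngr1 scored 116 and 263 in WT, then 103 and 74. Of the 50 further interferon-induced genes, 32 had a MACS2 promoter peak in both WT libraries. Of these 32, 15 had none in either Dido1∆E16 library (Gbp5 among them), beside 1336 of all 8981 such genes (14.9%). Another 13 of the 32 had one in both (Gbp9 and B2m among them), beside 6026 of the 8981 (67.1%). Among the 15, HOMER placed a promoter peak in every library at Gbp5, Lgals3bp and Lgals9. At Epsti1 it placed one in both WT libraries and Dido1∆E16 replicate 2, and at the rest of the 15 none in Dido1∆E16. Lists of equal length were not compared for these genes. No interferon gene had a promoter peak in both WT libraries.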

How the data were processed

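RNA-seq reads of 4 pre-B pools were aligned by the authors to mm10 with BWA-MEM 0.7.15, deduplicated and quantified with StringTie on UCSC known genes, which gave the deposited TPM, FPKM and coverage of each transcript. TPM was summed per gene by the authors' symbols and, for transcripts without one, by GENCODE M21 exons (at least 50% shared). With the authors' symbols alone, Igtp, Mx1 and Rsad2 are listed at 0 in all 4. Genes with a mean TPM of at least 1 were fitted as log2(TPM + 1) with limma 3.58.1 in R 4.3.3 (eBayes with trend). The fit was tested on simulated data.

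For 4 LSK libraries, the authors' deposited MACS2 peaks hold a score, HOMER peaks a constant score, and the deposited differential list log2 tag counts. Columns of the authors' own log2 fold changes and p-values (edgeR, DESeq2) were not used. Overlap needed 1 bp. By the labels each genotype has 2 such libraries, by the methods 3. The main fit did not pair pre-B libraries by replicate number.

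Members, lists and tests were chosen with earlier results of these data known. Library values are printed for members that were called, did not overlap with a log2 fold change of at least 0.6, had an unadjusted p under 0.05 or led their role group. Alternatives were a pseudocount of 0.1, no filter, median-centring, FPKM, eBayes without trend, a replicate block, single transcripts, the authors' symbols alone (added later), HOMER or fewer peaks, a 50% overlap, and leaving out each library. Some items are not reported here.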

Additional observations from a re-analysis of the deposited data

How the results depend on the processing

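No member was called by limma under any alternative that kept all libraries, including the replicate block. The median log2 fold change of the members ran from 0.0035 to 0.29 when each library was left out. Its SD over pairs of libraries was 0.19, but this comes from the same libraries and so cannot measure stability. The number of genes called, 6, was 0 with a pseudocount of 0.1, with no filter and with the replicate block, 25 for single transcripts, 90 without a trend, and 0 whenever a library was left out. Of the pathway genes, 1 (Ifi204) was called without a trend. Differences between replicates 1 and 2 were nearly uncorrelated between the genotypes (r = 0.052 across genes). Replicate 2 still had fewer aligned megabases in both genotypes, 1121 against 1581 in WT and 1174 against 1635 in Dido1∆E16. It also had more neutrophil, monocyte and erythroid marker RNA in both, and a shared replicate effect was not tested further. Directions turned for Ddx58 (-0.064 after median-centring, -0.0071 with FPKM) and Tyk2 (-0.25 with the authors' symbols alone). When each library was left out, log2 fold changes ran from -0.064 to 0.55 for Oas1a, -0.94 to 0.13 for Ifi27l2a, -0.28 to 0.32 for Ddx58, -0.40 to 0.14 for Irgm1, -0.16 to 0.11 for Parp9, -0.025 to 0.29 for Jak1, -0.27 to 0.79 for Irf1 and -1.61 to 0.26 for Irf2bp2. The authors' symbols alone and the member counts without single libraries were added after the data were seen. In LSK cells, the difference in members with a promoter peak (-11) was -6.5 with HOMER, 2 with the same number of best-scoring peaks, and -14.5 to -7.5 without single libraries. The difference in share of peaks (0.0093 points) was -0.0076 with the better-scoring 50% and -0.0082 to 0.027 without single libraries. WT-shared member regions without a Dido1∆E16 peak numbered 22, and 10 with HOMER, 1 with the same number of peaks, 9 with the better-scoring 50% and 23 to 52 without single libraries, since fewer or more peaks enter. Fits that leave out a library assume that the lone one varies like the others.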
